A study of Homo sapiens with 6 samples.

Results

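Transcripts of 4 gene families of the skin barrier were compared between U-2 OS cells making S22A-progerin and U-2 OS cells making wt-progerin. The families are the late cornified envelope genes (LCE), the small proline-rich genes (SPRR), the calcium-binding S100A genes and the keratin genes (KRT). Members were taken by symbol, as LCE, SPRR, S100A or KRT followed by a number. Keratin-associated protein genes, pseudogenes and antisense RNAs were left out. The choice was made with earlier results of these data known. Of 14884 genes tested, 90 met the rule, namely 17 LCE, 10 SPRR, 16 S100A and 47 KRT genes. RefSeq lists 11 more protein-coding genes of these names that were not analysed here. They are LCE1D, LCE7A, SPRR5, KRT6A, KRT6B, KRT17, KRT34, KRT81, KRT82, KRT86 and KRT222.

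U-2 OS is a human osteosarcoma line. Progerin is a shortened lamin A that keeps its farnesyl tail and is the toxic protein of Hutchinson-Gilford progeria. Both groups were grown with 10% fetal bovine serum, infected with a retroviral vector, kept in puromycin at 5 µg/ml for 3 days and lysed 4 days after infection. The wt-progerin group (n = 3 arrays) carried progerin with serine 22 intact, and the S22A-progerin group (n = 3 arrays) carried progerin with alanine at residue 22. The series text calls the replicates independent without saying what was repeated, and p-values cover array-to-array spread within this set. Cells without progerin were not analysed here, and a difference may lie in either group relative to the parental line. The promoter driving progerin is not given in the sources used here. All values are deposited log2 expression, and each difference is S22A-progerin minus wt-progerin. A gene was called when its limma p-value, adjusted by Benjamini-Hochberg over all 14884 genes, was under 0.05. No detection call was used. A weak signal may therefore be a silent gene, and at weak signals a fold understates the change. In bulk RNA, fewer cells of a type and less RNA per cell cannot be told apart.

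The outer layer of the epidermis is built by keratinocytes that replace their plasma membrane with a cornified envelope. LCE and SPRR proteins are cross-linked into that envelope by transglutaminases, while keratins fill the cell with filaments, each made of a type I and a type II keratin in pairs. S100A proteins are small calcium sensors that bind annexins, myosin and other partners, and some are secreted as alarm signals. The LCE, SPRR and S100A genes measured here all lie in 1 gene cluster, the epidermal differentiation complex.

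Markers were set against the labelled osteosarcoma line. VIM, the mesenchymal intermediate filament vimentin, lay at 10.89 in wt-progerin and 10.83 in S22A-progerin. Of 12 epithelial markers 7 were measured and 0 were called (the adhesion gene EPCAM, read at, 7.15 and 6.87). Their signals, summed on the linear scale and put back to log2, ran from 9.10 to 9.24 in wt-progerin and from 9.07 to 9.11 in S22A-progerin. Of 12 keratinocyte markers 7 were measured, 0 were called higher and 1, KRT14, was called lower (14.3% called). Their summed signals were 8.47 to 8.55 and 8.30 to 8.48. KRT1, KRT5, KRT10 and KRT14 among them are also members of the KRT family reported below, so this list is not separate from it. The 4 measured leukocyte markers had 0 calls, with summed signals of 8.12 to 8.17 and 8.09 to 8.31. Of 6 measured mesenchymal and osteoblast markers 0 rose and 3 fell, namely RUNX2, FN1 and THY1, with summed signals of 13.10 to 13.11 and 12.75 to 12.79. The part of these marker shifts in the results was not tested.

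Over the 4 families 14 genes were higher in S22A-progerin, 4 were lower and 72 were not called. That is 20.0% of the members called, against 25.4% of all genes tested. By direction, 10.8% of all genes were called higher and 14.6% lower. Most members gave weak signals, and 63 of the 90 lay in the lowest tertile of genes by mean (under 6.287). In that tertile 10.2% of genes were called either way and 6.69% were called higher, while 12 of those 63 members (19.0%) were called, 10 of them higher. The groups did not overlap in 29 members (32.2%), against 42.1% of all genes, with 19 members higher and 10 lower against 18.5% and 23.6% of all genes. These shares are descriptions, since the members were listed with earlier results known.

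Late cornified envelope genes showed the largest rises among the members, in LCE1F and LCE1B. LCE1F rose 3.50-fold, LCE1B rose 2.84-fold, and LCE2D, LCE3C and LCE3D rose by smaller amounts. Of the 17 genes 5 were called higher (29.4%), 0 were called lower and 12 were not called, against 10.8% of all genes called higher and 14.6% lower. The median difference was 0.19, against -0.0037 over all genes, and 15 of 17 differences were above 0. Among all genes 49.2% lay above 0, and 57.7% did in the lowest tertile by mean, where 13 of the LCE genes sit. The median level of the 17 genes was 5.17, 5.35 and 5.37 on the wt-progerin arrays. It was 5.64, 5.78 and 5.67 on the S22A-progerin arrays, so the family median did not overlap between groups. Nor did the SPRR median, at 5.07 to 5.25 in wt-progerin and 5.32 to 5.42 in S22A-progerin. The medians of S100A, of KRT and of all genes tested did overlap. The median over all probe sets did not, at 6.037 to 6.044 in wt-progerin and 6.050 to 6.089 in S22A-progerin. By gene, the groups did not overlap in 5 of the 17 LCE genes (29.4%), against 42.1% of all genes. Without S22A-progerin replicate 1 the called LCE genes numbered 3.

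LCE1F and LCE1B belong to the LCE1 group, whose products are laid down late in cornification. LCE1F stood at 4.92, 5.08 and 5.06 on the wt-progerin arrays, against 7.14, 6.59 and 6.76 on the S22A-progerin arrays. Every S22A-progerin array lay over 1.5 log2 units above every wt-progerin array. The means were 5.02 ± 0.084 and 6.83 ± 0.283 (SD, n = 3), a difference of 1.81 (SE 0.136, limma adjusted p = 1.69e-04). LCE1B stood at 3.41, 3.44 and 3.48 on the wt-progerin arrays, against 4.98, 5.08 and 4.78 on the S22A-progerin arrays. The wt-progerin arrays were tightly grouped at a low signal and the S22A-progerin arrays all stood above them. The means were 3.44 ± 0.033 and 4.95 ± 0.151 (SD, n = 3), a difference of 1.51 (SE 0.082, limma adjusted p = 5.02e-05). With a wt-progerin signal that low, the fold may understate the change in transcript. The other measured LCE1 genes were not called, and LCE1D was not analysed. Each measured LCE1 gene was read by 1 probe set, and signal shared between copies was not tested. LCE1E differed by 0.13 (95% interval -0.05 to 0.31), LCE1C by 0.07 (-0.31 to 0.46) and LCE1A by 0.35 (-0.21 to 0.91). For LCE1A, LCE1C and LCE1E the upper bounds lie below the lower bounds of LCE1F (1.49) and LCE1B (1.31), though these intervals come from different probe sets on the same arrays.

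The stretch of 100 bases just before the start of transcription is shown for LCE1F and its close copies LCE1E and LCE1C, because their promoters are alike while their differences are not. LCE1B is not in the promoter table. All sequences are RefSeq promoter sequence of build GRCh38.p14, read 5′ to 3′ on the gene's strand and ending at the base before the start, and capitals mark the letters ATAAA, the core of a TATA-type element.
LCE1F, chr1:152775040-152775139, plus strand: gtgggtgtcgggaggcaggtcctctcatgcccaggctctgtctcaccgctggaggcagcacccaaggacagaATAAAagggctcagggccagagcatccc
LCE1E, chr1:152786157-152786256, plus strand: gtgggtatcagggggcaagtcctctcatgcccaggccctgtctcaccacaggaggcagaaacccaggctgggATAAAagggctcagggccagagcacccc
LCE1C, chr1:152806652-152806751, minus strand: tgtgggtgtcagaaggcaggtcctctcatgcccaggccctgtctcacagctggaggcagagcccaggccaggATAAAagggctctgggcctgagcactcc

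In these windows LCE1F matched LCE1E at 85.0% of positions and LCE1C at 72.7%, in an alignment without gaps that allowed a shift of up to 12 bases. ATAAA begins 28 bases before the start in each of them. The motif was chosen after the sequences were seen, and was searched at any position of the window on the gene's strand only. It was present in 14 of the 16 LCE windows (87.5%) and in 2839 of 27305 promoter windows of the same length (10.4%). In LCE1A it begins at -95 from the start, so a counted match need not be a TATA-type element. A GC box (GGGCGG on either strand) was in 0 of the 16 LCE windows and in 31.3% of all windows. The AP-1 letters TGANTCA, on either strand, were in 0 of 16 and in 2.70% of all. The letters CACCC, on either strand, were in 6 of 16 LCE windows (37.5%) and in 28.1% of all. In the other families ATAAA was in 8 of 8 SPRR windows, 5 of 16 S100A windows (31.2%) and 25 of 32 KRT windows (78.1%). These are matches of letters and say nothing of which factor binds.

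LCE2D was the LCE2 gene that passed. It stood at 4.96, 4.90 and 4.97 on the wt-progerin arrays, against 5.41, 5.36 and 5.38 on the S22A-progerin arrays. The spread inside each group was small beside the step between them. The difference was 0.44 (SE 0.052, limma adjusted p = 0.00102), 1.36-fold. LCE2A, LCE2B and LCE2C differed by 0.06, 0.13 and 0.10 and were not called.

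Of the LCE3 genes, which are induced when the skin barrier is broken, LCE3C and LCE3D passed. LCE3C stood at 5.17, 5.53 and 5.50 on the wt-progerin arrays, against 5.83, 5.78 and 5.84 on the S22A-progerin arrays. One wt-progerin array lay below the other 2, and the groups did not overlap. The difference was 0.42 (SE 0.099, limma adjusted p = 0.0209), and the call ended without S22A-progerin replicate 1, 2 or 3 (adjusted p = 0.0599, 0.0527 and 0.0573). LCE3D stood at 5.08, 5.08 and 5.10 on the wt-progerin arrays, against 5.64, 5.24 and 5.47 on the S22A-progerin arrays. The wt-progerin arrays hardly varied, while the S22A-progerin arrays ran from 5.24 to 5.64. The difference was 0.36 (SE 0.099, limma adjusted p = 0.0355). It was lost after a repeated quantile normalization (adjusted p = 0.0642), after median-centring (0.0564) and in 5 of the 6 fits that left out an array. Adjusted p was 0.0923, 0.0924 and 0.0883 without wt-progerin replicates 1, 2 and 3, and 0.0711 and 0.0852 without S22A-progerin replicates 1 and 3. LCE3A, LCE3B and LCE3E differed by 0.19, 0.04 and -0.07 and were not called. Nor were LCE4A (0.20), LCE5A (0.29) and LCE6A (-0.13). Without S22A-progerin replicate 3 the LCE5A difference was 0.45 and passed (limma adjusted p = 0.0221).

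**Figure D1:**
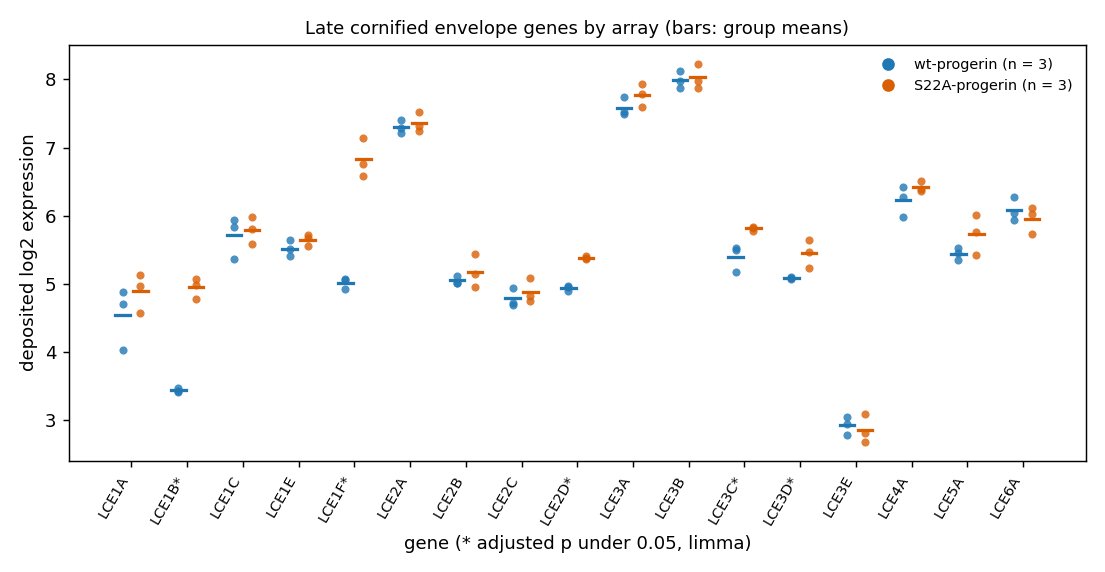
Deposited log2 expression (y axis) of the 17 LCE genes (x axis) on each of the 3 wt-progerin and 3 S22A-progerin arrays (points), with group means (bars). LCE1B and LCE1F show the widest separation, from 3.44 to 4.95 and from 5.02 to 6.83, and asterisks mark the 5 called genes.

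Their promoter windows are shown because LCE2D, LCE3C and LCE3D rose with LCE1F, with the same marking of ATAAA. The windows of LCE3C and LCE3D matched at 55.0% of positions. LCE1F matched LCE3C at 42.0%, LCE3D at 39.0% and LCE2D at 31.9%. It matched the windows compared from other families at 32.7% (SPRR2A) to 47.0% (SPRR1A), so its matches with LCE2D, LCE3C and LCE3D were no closer than those.
LCE2D, chr1:152663280-152663379, plus strand: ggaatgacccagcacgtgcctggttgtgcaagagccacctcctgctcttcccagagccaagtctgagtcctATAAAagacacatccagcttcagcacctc
LCE3C, chr1:152600134-152600233, plus strand: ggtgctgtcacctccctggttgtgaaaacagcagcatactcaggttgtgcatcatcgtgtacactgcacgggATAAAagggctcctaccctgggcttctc
LCE3D, chr1:152580517-152580616, minus strand: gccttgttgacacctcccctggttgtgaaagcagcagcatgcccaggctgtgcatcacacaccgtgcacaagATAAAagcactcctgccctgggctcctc

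Small proline-rich genes moved less, and in both directions. SPRR2D, SPRR2B and SPRR1A were higher in S22A-progerin by 1.18-fold to 1.29-fold, and SPRR1B was 1.51-fold lower. Of 10 genes 3 were called higher, 1 lower and 6 not, a share of 40.0% called against 25.4% of all genes. The median difference was 0.22, and 9 of 10 lay above 0. Among all genes 49.2% lay above 0, and 57.7% did in the lowest tertile by mean, where 6 of the 10 sit. The 4 called genes all lay in that tertile, in which 10.2% of genes were called.

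SPRR1A and SPRR1B encode near-copies of an envelope precursor that bridges loricrin molecules. SPRR1B stood at 3.48, 3.30 and 3.36 on the wt-progerin arrays, against 2.68, 2.82 and 2.85 on the S22A-progerin arrays. All 3 S22A-progerin arrays were below all 3 wt-progerin arrays, at signals near the bottom of the scale. The difference was -0.60 (SE 0.073, limma adjusted p = 0.00127). SPRR1A stood at 5.62, 5.46 and 5.60 on the wt-progerin arrays, against 5.76, 5.81 and 5.84 on the S22A-progerin arrays. The groups were separate by a narrow margin of 0.14 log2 units. The difference was 0.24 (SE 0.064, limma adjusted p = 0.0307), and it did not pass when any 1 of the 6 arrays was left out (adjusted p from 0.0507 to 0.0938) or with the arrays median-centred (0.0521). SPRR3 lies between these genes. Their 100-base windows are shown because the genes differed in opposite directions. They matched at 50.5% of positions and both hold ATAAA.
SPRR1A, chr1:152983981-152984080, plus strand: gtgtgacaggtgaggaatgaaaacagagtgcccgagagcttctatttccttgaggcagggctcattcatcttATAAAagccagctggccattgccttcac
SPRR1B, chr1:153031103-153031202, plus strand: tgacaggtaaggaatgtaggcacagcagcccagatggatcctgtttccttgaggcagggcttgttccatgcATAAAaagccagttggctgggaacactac

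The SPRR2 genes, whose products also join the envelope, all had differences above 0. SPRR2D stood at 4.68, 4.51 and 4.53 on the wt-progerin arrays, against 4.89, 5.02 and 4.93 on the S22A-progerin arrays, with no overlap. The difference was 0.37 (SE 0.069, limma adjusted p = 0.00757). SPRR2B stood at 3.95, 3.79 and 3.89 on the wt-progerin arrays, against 4.18, 4.14 and 4.18 on the S22A-progerin arrays. Its groups were also separate, at a low signal. The difference was 0.29 (SE 0.060, limma adjusted p = 0.0117), and with an intensity trend in the variance prior it did not pass (adjusted p = 0.0884). SPRR2F had the largest difference above 0 in the family, 0.46, but its S22A-progerin arrays ran from 7.21 to 8.19 and it was not called (limma adjusted p = 0.245, and 0.0492 without S22A-progerin replicate 3). SPRR2A (0.19), SPRR2G (0.13) and SPRR2E (0.02) were not called. SPRR4 (0.28, limma adjusted p = 0.0605) fell just short, and passed without S22A-progerin replicate 1 (0.0213), while SPRR3 differed by 0.06. The SPRR2 copies are close in sequence, so their probe sets may share signal.

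**Figure D2:**
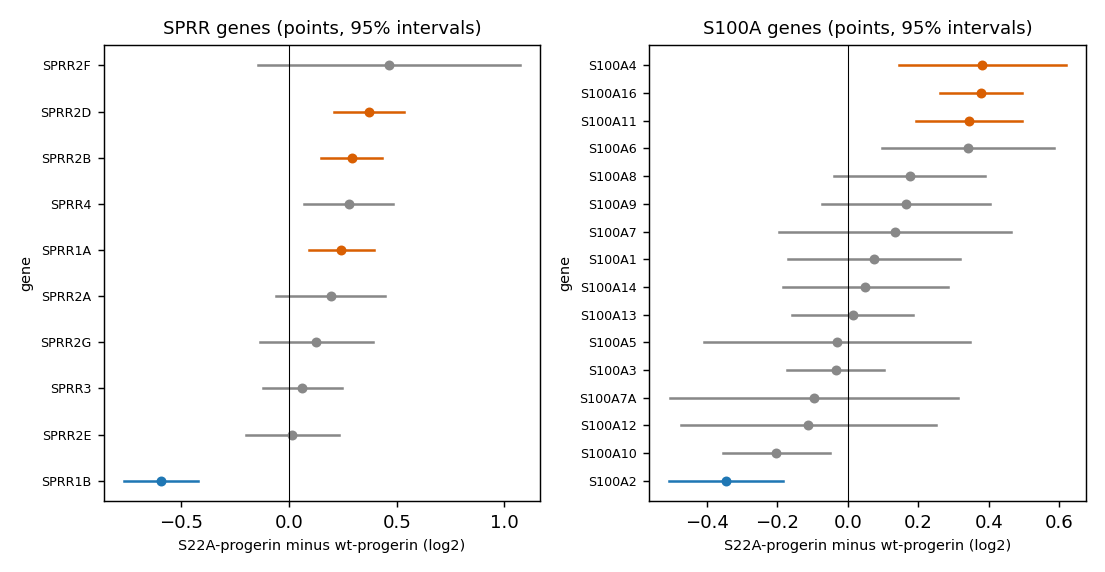
Log2 difference, S22A-progerin minus wt-progerin (x axis, points with 95% intervals, n = 3 arrays a group) for the 10 SPRR genes (left) and 16 S100A genes (right). Orange marks called higher, blue called lower and grey not called, and SPRR1B (-0.60) and S100A2 (-0.35) are the called genes below 0.

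S100A genes showed small differences in both directions, the largest called fold being 1.30 in S100A4. S100A16, S100A11 and S100A4 were higher in S22A-progerin and S100A2 was lower, while 12 of the 16 were not called. The share called was 25.0%, against 25.4% of all genes, so the family as counted stood at the background. The median difference was 0.06, and 10 of 16 lay above 0, against 49.2% of all genes.

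S100A16, a widely expressed member, had a bright probe set. It stood at 11.31, 11.25 and 11.29 on the wt-progerin arrays, against 11.68, 11.64 and 11.65 on the S22A-progerin arrays. The arrays within each group lay close together, far from those of the other group. The difference was 0.38 (SE 0.050, limma adjusted p = 0.00182), 1.30-fold. S100A11, a partner of annexin A1, stood at 7.94, 8.07 and 8.11 on the wt-progerin arrays, against 8.43, 8.37 and 8.35 on the S22A-progerin arrays. Again the groups were separate. The difference was 0.34 (SE 0.063, limma adjusted p = 0.00742), and ANXA1 itself differed by 0.12 and was not called. S100A4, which binds non-muscle myosin and is linked to cell motility, stood at 4.89, 4.77 and 4.58 on the wt-progerin arrays, against 5.28, 5.09 and 5.03 on the S22A-progerin arrays. The groups were separate, though both were spread and of low signal. The difference was 0.38 (SE 0.100, limma adjusted p = 0.0304). The call ended without wt-progerin replicate 2 or 3 (adjusted p = 0.0717 and 0.0859) and without S22A-progerin replicate 1 or 2 (0.0824 and 0.0653).

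S100A2, a nuclear member typical of basal keratinocytes, was the 1 S100A gene called lower. It stood at 8.27, 8.35 and 8.20 on the wt-progerin arrays, against 8.02, 7.89 and 7.87 on the S22A-progerin arrays. No S22A-progerin array reached the lowest wt-progerin array. The difference was -0.35 (SE 0.068, limma adjusted p = 0.00992). S100A2 and S100A16 are next to each other in the complex and moved in opposite directions. S100A6, calcyclin, missed the threshold narrowly at 0.34 (limma adjusted p = 0.0513) and passed with array weights (0.0348) and with the intensity trend (0.0246). S100A10, the annexin A2 partner p11, also missed narrowly at -0.20 (limma adjusted p = 0.0598), and ANXA2 differed by -0.23 and was not called (0.0585). S100A10 passed with the intensity trend (0.0155), with the dimmer 50% of genes left out (0.0160) and with the arrays median-centred (0.0490). The secreted alarm proteins were not called, with differences of 0.18 in S100A8 and 0.17 in S100A9, the calprotectin pair, 0.13 in S100A7 (psoriasin) and -0.11 in S100A12. Without S22A-progerin replicate 2 the S100A8 difference was 0.27 and passed (limma adjusted p = 0.0379). Of 14 measured S100 relatives and partners outside the family 1 rose and 2 fell, AHNAK (-0.37) and S100PBP (-0.42), a share of 21.4% against 25.4% of all genes. The rise was TLR4, a receptor for secreted S100 proteins, which went up by 1.35 (SE 0.052), from 8.80 to 10.14, and AGER (-0.05), the RAGE receptor, was not called.

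In chromosomal order the complex from S100A10 to S100A1 holds 63 protein-coding genes in RefSeq, of which 60 were measured. Of these 14 were called higher and 2 lower (26.7% called, against 25.4% of all genes), and 47 of 60 differences were above 0. Among all genes 49.2% lay above 0, and 57.7% did in the lowest tertile by mean. The rises did not form 1 block. LCE1F and LCE1B are 4 places apart, and LCE1E and LCE1C, measured between them, were not called. Of the 17 measured genes in the complex outside the 3 families, 3 rose and 0 fell, a share of 17.6% against 25.4% of all genes. PRR9, a proline-rich gene beside LORICRIN, rose 4.03-fold from 5.66 to 7.67 (SE 0.138, limma adjusted p = 1.17e-04). LORICRIN, the main envelope protein, rose by 0.30, and FLG, filaggrin, by 0.36. IVL, involucrin, differed by 0.32 and was not called (limma adjusted p = 0.147).

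**Figure D3:**
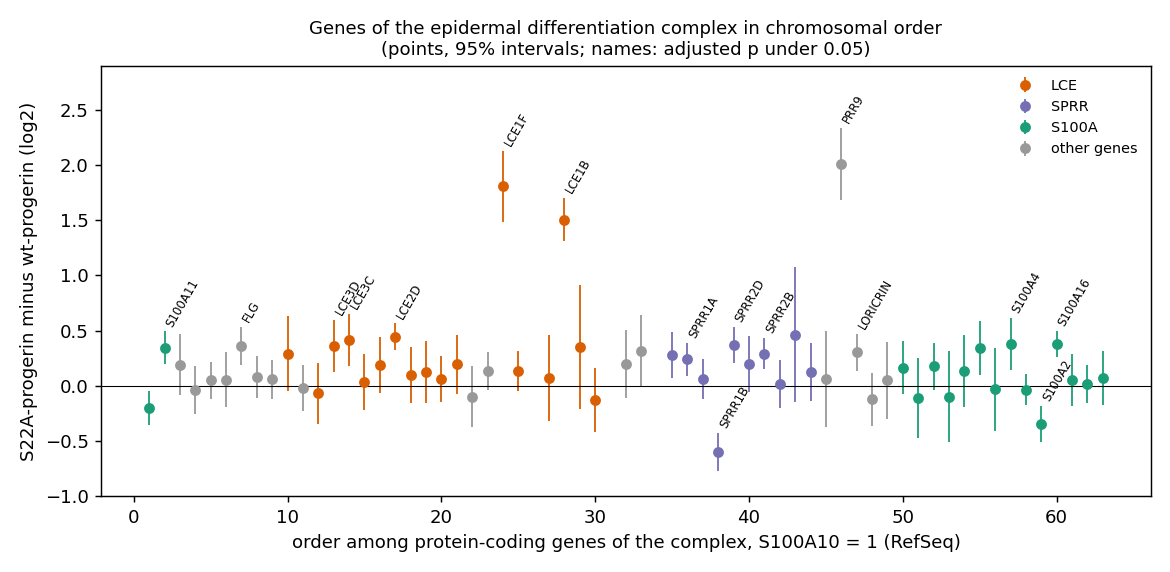
Difference of S22A-progerin minus wt-progerin (log2, y axis, points with 95% intervals, n = 3 arrays a group) for the 60 measured genes of the epidermal differentiation complex, in RefSeq order (x axis, position in a count of 63 genes). LCE1F (1.81), LCE1B (1.51) and PRR9 (2.01) stand above all others shown, with uncalled genes between them.

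In a list of 36 genes of the envelope and its processing outside the 4 families, 28 were measured, 7 rose, 1 fell and 20 were not called (median 0.07). The share called was 28.6%, near the 25.4% of all genes. CSTA, the protease inhibitor cystatin A, rose 2.44-fold from 5.91 to 7.20 (SE 0.070, limma adjusted p = 5.00e-05). The other rises besides PRR9, FLG and LORICRIN were SBSN (0.36), CNFN (0.28) and ALOXE3 (0.21), a lipoxygenase of the barrier. The fall was KLK7 (-0.58), a protease that sheds cornified cells. Of 9 measured keratinocyte transcription factors 1 rose (11.1%), GRHL3, a grainyhead factor needed for barrier formation, from 5.91 to 6.88 (SE 0.164, limma adjusted p = 0.00518). KLF4 (-0.02) and GRHL2 (-0.03) were not called.

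Keratins were mostly uncalled, and the largest called differences were in KRT80, KRT15 and KRT18. KRT80 was 2.75-fold lower in S22A-progerin, KRT15 was 2.25-fold higher and KRT18 was 1.43-fold higher. Of 47 keratin genes 3 were called higher, 2 lower and 42 not, a share of 10.6% against 25.4% of all genes. Of the 47, 37 lay in the lowest tertile by mean, and 2 of those 37 were called (5.41%, against 10.2% of all genes in that tertile). The median difference was 0.02, with 26 above 0 and 21 below. Without S22A-progerin replicate 3 the called keratins numbered 3.

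KRT80, a type II keratin of many epithelia, stood at 11.39, 11.32 and 11.31 on the wt-progerin arrays, against 10.00, 9.94 and 9.71 on the S22A-progerin arrays. The gap between the groups was 1.31 log2 units. The means were 11.34 ± 0.040 and 9.88 ± 0.152 (SD, n = 3), a difference of -1.46 (SE 0.083, limma adjusted p = 5.78e-05). KRT7, its neighbour on the chromosome and a simple-epithelium keratin, differed by -0.0035 (95% interval -0.18 to 0.18).

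KRT18 is the type I keratin of simple epithelia and pairs with KRT8. The brighter of its 2 probe sets stood at 11.47, 11.41 and 11.39 on the wt-progerin arrays, against 11.89, 11.95 and 11.97 on the S22A-progerin arrays. Each group was tight and the groups were apart. The means were 11.42 ± 0.038 and 11.94 ± 0.039 (SD, n = 3), a difference of 0.51 (SE 0.053, limma adjusted p = 6.10e-04). The dimmer probe set gave 7.57 and 8.02, a difference of 0.45 (limma adjusted p = 0.0178 over all probe sets). KRT18 has many processed pseudogenes, so its probe sets may read other copies as well. The brighter probe set, which gave the 1.43-fold, may read a pseudogene, and probe positions were not given. KRT8, next to KRT18, stood at 7.69, 7.49 and 7.52 on the wt-progerin arrays, against 7.46, 7.57 and 7.83 on the S22A-progerin arrays. Its groups overlapped, and the difference was 0.06 (95% interval -0.19 to 0.30, limma adjusted p = 0.751). The KRT8 probe set is annotated to a noncoding transcript of the gene. Among the other simple-epithelium keratins, KRT19 (-0.06) and KRT20 (0.25) were not called.

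The basal-layer keratins did not move together. KRT15, a type I keratin of basal keratinocytes and of hair follicle stem cells, stood at 5.93, 5.78 and 5.70 on the wt-progerin arrays, against 7.02, 6.90 and 6.996 on the S22A-progerin arrays. All S22A-progerin arrays were 0.97 log2 units or more above the wt-progerin arrays. The means were 5.80 ± 0.119 and 6.97 ± 0.064 (SD, n = 3), a difference of 1.17 (SE 0.075, limma adjusted p = 9.22e-05). KRT14, the main basal type I keratin, stood at 6.06, 6.25 and 6.003 on the wt-progerin arrays, against 5.78, 5.84 and 5.75 on the S22A-progerin arrays. Here the S22A-progerin arrays were the lower ones, without overlap. The difference was -0.32 (SE 0.077, limma adjusted p = 0.0218), and the call ended without wt-progerin replicate 1 or 2 (adjusted p = 0.0502 and 0.0520) and without S22A-progerin replicate 1 or 3 (0.0614 and 0.0587). KRT5, the type II partner of KRT14, differed by -0.35 with groups that did not overlap, and was not called (limma adjusted p = 0.0787, and 0.0458 without wt-progerin replicate 2). KRT13 (0.31) and KRT19 (-0.06), on either side of KRT15, were not called.

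**Figure D4:**
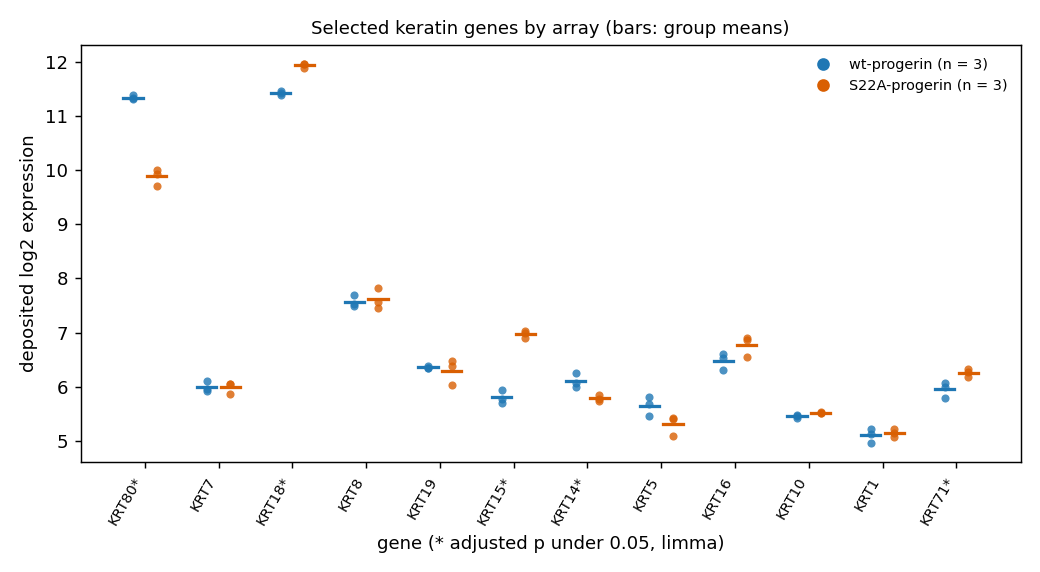
Deposited log2 expression (y axis) of the 5 called keratins (asterisks) and of partners, neighbours and layer markers (x axis) on each array (points), with group means (bars). KRT80 drops from 11.34 to 9.88 and KRT15 climbs from 5.80 to 6.97, while KRT7 and KRT8 overlap between groups.

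Of 5 keratins of differentiated epidermis (KRT1, KRT2, KRT9, KRT10 and KRT77) 0 were called, with differences from -0.12 to 0.07. All 5 lay in the lowest tertile by mean, where 10.2% of genes were called. The 3 mucosal and 2 corneal keratins had 0 calls. With so few genes, 0 calls is not a result about these classes. KRT16 (0.29) and KRT6C (-0.10), keratins of wounds and of palm and sole, were not called, and KRT16 passed without S22A-progerin replicate 1 (limma adjusted p = 0.0399). Of 13 hair shaft keratins 0 were called, against 25.4% of all genes, with differences from -0.09 to 0.36. The highest of these, KRT32, had separate groups at limma adjusted p = 0.0979. Of 9 keratins of the hair root sheaths 1 was called (11.1%, against 25.4% of all genes). KRT71, of the inner root sheath, stood at 6.07, 5.80 and 5.999 on the wt-progerin arrays, against 6.18, 6.33 and 6.27 on the S22A-progerin arrays. The margin between the groups was narrow. The difference was 0.31 (SE 0.084, limma adjusted p = 0.0358), and the call ended without wt-progerin replicate 2 or 3 (adjusted p = 0.0866 and 0.0763) and without S22A-progerin replicate 2 or 3 (0.106 and 0.0797). By type, 2 of 26 type I keratins rose and 1 fell, and 1 of 21 type II keratins rose and 1 fell. The shares called were 11.5% and 9.52%, against 25.4% of all genes and 10.2% in the lowest tertile by mean.

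**Figure D5:**
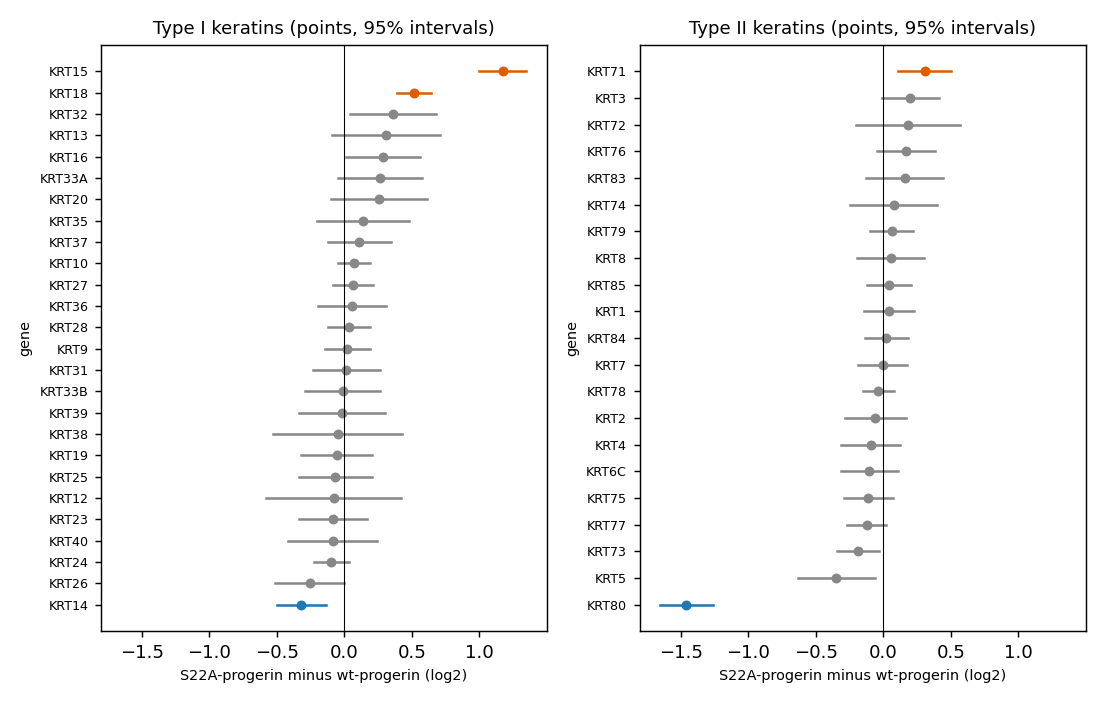
Log2 difference, S22A-progerin minus wt-progerin (x axis, points with 95% intervals, n = 3 arrays a group) for 26 type I keratins (left) and 21 type II keratins (right), ordered by size. KRT15 (1.17), KRT18 (0.51) and KRT80 (-1.46) lie farthest from 0 among the called genes, and most intervals of the others cross 0.

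Keratin filaments are tied to desmosomes and hemidesmosomes. Of 17 measured genes of these junctions and their linkers 0 rose, 4 fell and 13 were not called (median -0.06). The share called was 23.5%, near the 25.4% of all genes, of which 14.6% were lower. PKP4 (-0.83) and PKP2 (-0.51), plakophilins, DSC2 (-0.36), a desmosomal cadherin, and PLEC (-0.30), the linker plectin, fell, while DSP (0.04), desmoplakin, and JUP (-0.12), plakoglobin, were not called. Of 6 measured genes for other cytoplasmic intermediate filaments and related factors, NES (-0.65), nestin, fell and the other 5 were not called, VIM among them (-0.05). That is 16.7% called, against 25.4% of all genes.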

How the data were processed

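The 6 arrays were read as 1 table with 1 column per array, grouped by the labels. Per the submitters' processing notes, the deposited log2 values came from RMA, run by the authors in Affymetrix Expression Console. RMA subtracts background, quantile normalizes and summarises probe sets, so folds of weak probe sets are compressed. The sources used here give no version, build or annotation for it. No detection calls were used, and the number of arrays limits the precision.

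Of 53617 probe sets, 16098 carried 1 gene symbol, 0 several, and 37519 were not named here. The probe set with the highest mean stood for each of 14884 genes. Of the 90 members 1, KRT18, had 2 probe sets. Genes were fitted with limma 3.58.1 (R 4.3.3; lmFit, eBayes, 2 groups, no covariate, no filter), two-sided. The Benjamini-Hochberg adjustment ran over all genes, with calls at 0.05. Members, gene lists and the rule for named genes (every called member, the extremes of each family, near misses, LCE1B, LCE1F, KRT15 and KRT18, and called list genes with up to 3 others) were chosen with earlier results of these data known. List genes named outside that rule, such as annexins and S100 receptors, were picked after their values were seen. Promoters come from a RefSeq table of GRCh38.p14, which holds 16 LCE, 8 SPRR, 16 S100A and 32 KRT members. Gene order comes from RefSeq. The code was tested on simulated data before use. Alternatives covered normalization, filters, probe sets, priors, weights, the replicate number as a block, thresholds and each array left out.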

Additional observations from a re-analysis of the deposited data

How the results depend on the processing

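Of the 18 called members, 11 passed in every alternative fit that tested them, 7 were lost in at least 1 and 0 changed sign. Under the stricter thresholds, 11 of the 18 had an adjusted p under 0.01 and 5 had a fold of at least 1.5. Of the 72 not called, 10 passed in at least 1 alternative fit. With the dimmer 50% of genes left out, 0 LCE, 0 SPRR and 2 KRT genes were called, since only 3 LCE, 1 SPRR and 4 KRT genes were still tested. Of these, 0, 0 and 2 had an unadjusted limma p under 0.05 in the fit over all genes. Testing every probe set left 2296 genes of all called, 3 LCE and 3 KRT. At adjusted p under 0.01 there were 2078 genes of all, 3 LCE, 2 SPRR and 3 KRT, and at a fold of at least 1.5 there were 863, 2, 1 and 2, with 0 S100A. Leaving out 1 array gave 2647 to 3601 genes of all, 3 to 4 LCE, 3 to 4 SPRR, 3 to 4 S100A and 3 to 5 KRT. Replicate numbers were shared between the groups, but deviations of same-numbered arrays from their group means correlated at -0.0195, -0.0549 and -0.00558, so the numbers were not taken as pairs. With the replicate block 2990 genes were called, among them 5 LCE, 3 SPRR, 5 S100A and 5 KRT. SPRR1A (adjusted p = 0.0702) and KRT71 (0.0787) then missed, and KRT32 (0.0352) and S100A6 (0.0245) passed. Signals near the bottom of the scale limit what can be said of SPRR1B, SPRR2B and LCE1B.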

Other observations

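Keratin-associated protein genes, which encode the matrix around hair keratins and were left out of the families above, held some larger differences than most keratins. Of 84 measured, 7 were called higher, 1 lower and 76 not (9.52% called, against 25.4% of all genes; median 0.06). KRTAP2-3 rose from 11.13 to 12.62, a difference of 1.49 (SE 0.056, limma adjusted p = 1.21e-05), on a bright probe set. KRTAP21-2 rose from 4.30 to 5.85 (SE 0.120) and KRTAP4-12 from 3.73 to 4.95 (SE 0.210), both from weak signals. The fall was KRTAP4-2, from 4.92 to 3.96 (SE 0.233). These genes come in near-identical copies, so their probe sets may share signal.

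The 8 pseudogenes left out by the rule had 0 limma calls. KRT18P55, the only KRT18 pseudogene among them, differed by 0.00359 while KRT18 rose. Signal from other KRT18 copies was not tested. SPRR2C differed by 0.07.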
